A study of Mus musculus with 12 samples.

Results

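Tumour-bearing and tumour-free mice were compared in 2 tissues of the same animals: the gastrocnemius of the calf and the hypothalamus, the brain region that governs feeding, body temperature and the hormonal stress axis. The design asks which genes changed alike in both tissues, and for which genes the change in muscle differed from the change in brain. All 12 libraries of the series entered, 3 in each of 4 groups, and each of the 6 mice gave 1 library per tissue. The cachectic mice carried CT-26 cells, a colon carcinoma line, injected under the skin of the abdomen. They weighed 7 to 10% less than healthy mice by day 10, and the tissues of tumour-bearing mice were taken on day 25. The normal mice received no tumour cells, and the day on which their tissues were taken is not given in the sources used here. All 4 groups were male BALB/c mice, given as 7-week-old, and no transgene, allele or drug is named for any group. Genes entered when their mean level over the 6 libraries of a tissue reached 1 TPM (a level scaled to gene length and library) in gastrocnemius and also in hypothalamus. Of 55416 gene identifiers, 10253 met this rule and 10132 of those had enough reads to be tested in each tissue and for the difference between tissues. Another 814 genes reached the level in gastrocnemius alone and 4622 in hypothalamus alone, and these were left out.

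The libraries held 26015741 to 52535761 estimated counts. Summed over 15 muscle fibre markers, gastrocnemius libraries held 181390 to 373450 CPM (counts scaled to library size) and hypothalamus libraries 27.97 to 59.1 CPM. Summed over 15 neuron markers, hypothalamus libraries held 4301 to 4745 CPM and gastrocnemius libraries 7.90 to 13.2 CPM, so the labelled tissues and their markers went together. Mitochondrially encoded genes took 8.26 to 11.1% of counts in cachectic and 13.5 to 19.7% in normal gastrocnemius, against 7.64 to 8.87% in hypothalamus. Within each tissue the first principal component separated cachectic from normal libraries. Because these are whole tissues, fewer cells of a type and less RNA per cell cannot be told apart.

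Cachexia is the loss of muscle and fat that accompanies cancer and other chronic disease. Circulating cytokines of the IL-1 and IL-6 families and adrenal glucocorticoids act on many organs at once. In muscle they are known to drive protein breakdown through the ubiquitin-proteasome and autophagy pathways under FOXO transcription factors, and in brain they act on the endothelium and glia as well as on neurons. Some target genes answer these hormones in almost every cell type, whereas others are tied to 1 tissue.

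Muscle changed far more than brain, and a minority of genes changed in both. In gastrocnemius 4067 of the 10132 genes tested changed (40.1%), of which 2364 rose (23.3%) and 1703 fell (16.8%). In hypothalamus 997 changed (9.84%), of which 449 rose (4.43%) and 548 fell (5.41%). The test was edgeR's quasi-likelihood test, with Benjamini-Hochberg adjustment over all genes tested and a threshold of 0.05. Both tissues passed the test for 487 genes: 204 rose in both (2.01%), 171 fell in both (1.69%), 69 rose in muscle and fell in brain (0.681%), and 43 fell in muscle and rose in brain (0.424%). The 375 genes changed alike (3.7%) were 9.22% of the muscle calls and 37.6% of the hypothalamus calls. The 112 changed in opposite directions (1.11%) were 2.75% and 11.2% of them. Without regard to the test, the 3 cachectic libraries lay all above or all below the 3 normal ones for 5478 genes in gastrocnemius (54.1%) and 3262 in hypothalamus (32.2%), on the same side in both for 1245 (12.3%) and on opposite sides for 600 (5.92%). Changes were larger in muscle: the SD of the log2 change across genes was 0.75 in gastrocnemius and 0.29 in hypothalamus. Across the 10132 genes, which are not independent replicates, the log2 changes of the 2 tissues correlated with Pearson's r = 0.283 and Spearman's rho = 0.192, and 56.4% had the same sign. The plot of the change in one tissue against the other shows the 4 classes.

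**Figure D1:**
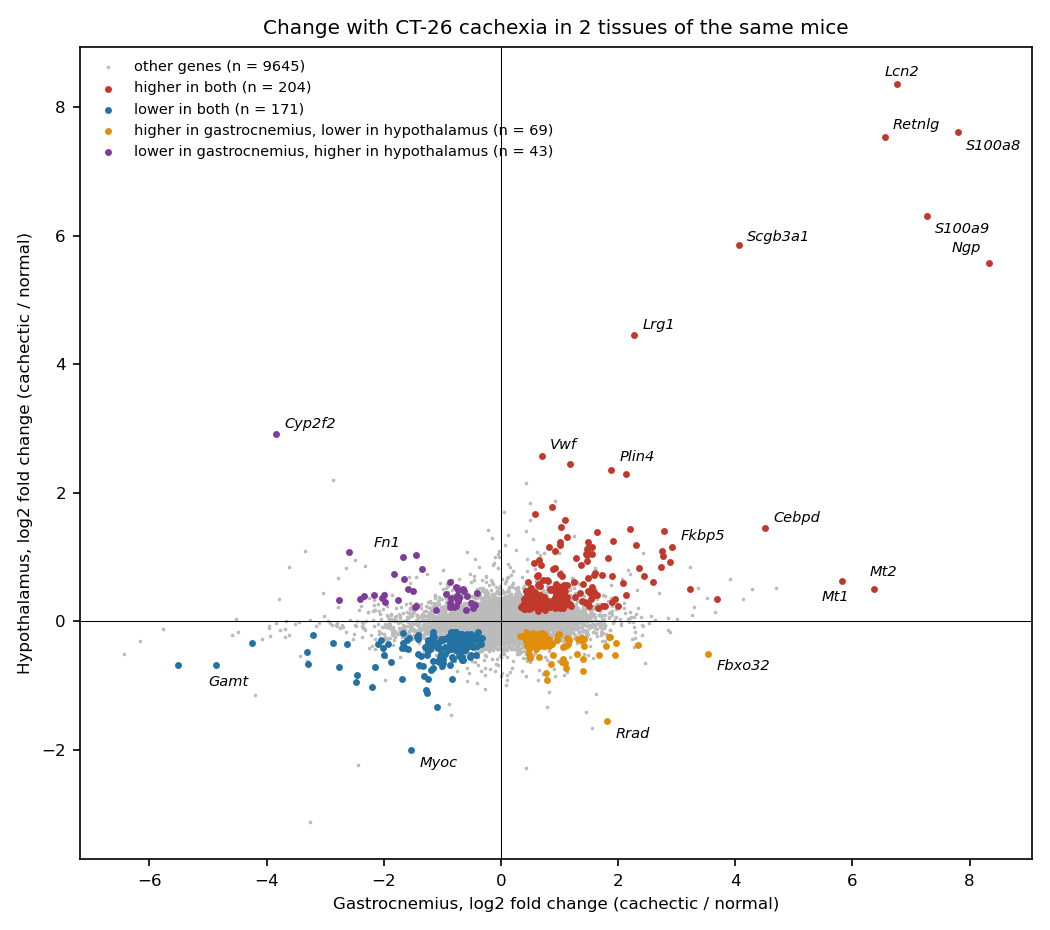
Change with CT-26 tumour in hypothalamus (y axis, log2 cachectic over normal) against change in gastrocnemius (x axis, same unit) for 10132 genes, each point 1 gene, with the genes that changed in both tissues coloured by class. Most points lie along the x axis, and 204 genes rose and 171 fell in both.

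The difference between tissues was then tested gene by gene as an interaction, the log2 change in gastrocnemius minus the log2 change in hypothalamus, in 1 fit of all 12 libraries. It passed for 3584 genes (35.4%): for 2035 the muscle change lay above the brain change (20.1%) and for 1549 below it (15.3%). For 3471 of the 3584 (96.8%) the absolute change was larger in muscle, for 113 it was larger in hypothalamus, and 1124 differed by at least 2-fold. Among the 204 genes that rose in both tissues, 79 rose more in muscle by this test, 5 rose more in hypothalamus, and 120 did not pass the test of the difference. Their median log2 change was 0.98 in muscle and 0.40 in brain. Of the 171 genes that fell in both, 76 fell more in muscle and 95 did not pass, with medians of -0.87 and -0.38. The 5 genes that rose more in hypothalamus were Lrg1, Sult1a1, Il1r1, Icam1 and Vwf.

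The counts moved with the libraries and with the scaling. Without the library of normal hypothalamus 2, 166 genes rose and 176 fell in hypothalamus and 83 rose in both, and without both libraries of that mouse 69 rose and 63 fell in both. Leaving out cachectic hypothalamus 1 gave 91 that rose in both. With the single-tissue contrasts taken from the fit of 12 libraries, in which both tissues share 1 estimate of the spread per gene, 45 rose and 15 fell in both. The median log2 change of all genes in gastrocnemius was 0.059 with the normalisation used here (TMM, trimmed mean of M values), 0.257 with library totals and 0.392 on log2(TPM + 0.5), so the share of interaction calls with muscle above brain went from 56.8% to 76.9% and 88.9%, and the share of alike calls that rose from 54.4% to 78.1% and 78.7%. Across 28 settings, which count the main fit and the left-out libraries and mice, 30 of the 204 genes stayed called higher in both, 4 of the 171 lower in both, and 1 of the 112 opposite. TMM factors within each tissue are also among the 28 and leave the single-tissue calls unchanged by construction.

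Among the genes that rose in both tissues, ranked by the smaller of their 2 changes, secreted proteins of neutrophils and of the acute phase led (S100a8, Lcn2, Retnlg, S100a9 and Ngp). Lcn2 encodes lipocalin 2, an iron-sequestering protein made by neutrophils, epithelia and activated endothelium and glia. In gastrocnemius it was at 146, 29.8 and 105 CPM in the cachectic and 0.8898, 0.6703 and 1.02 CPM in the normal muscles, given for mice 1, 2 and 3 in that order here and below. In hypothalamus it was at 24.7, 9.87 and 18.2 CPM in the cachectic and 0.0442, 0.03903 and 0.0719 CPM in the normal hypothalami. All 3 cachectic libraries lay above all 3 normal ones in each tissue, and Lcn2 rose by a log2 of 6.77 ± 0.65 (SE, n = 3 and 3, adjusted p = 0.000358) in muscle and 8.36 ± 0.51 (adjusted p = 1.81e-05) in brain. The difference between the 2 changes was -1.58 (95% interval -4.86 to 1.7, adjusted p = 0.493). S100a8, a subunit of the neutrophil protein calprotectin, was at 75.2, 12.1 and 13.1 CPM in the cachectic and 0.167, 0.0559 and 0.215 CPM in the normal muscles, and at 20.7, 5.003 and 2.03 CPM in the cachectic and 0.0221, 0 and 0.1199 CPM in the normal hypothalami. Its partner S100a9 rose by 7.27 and 6.3. Cachectic mouse 1 was highest for S100a8 in both tissues; without its library the log2 change was 6.37 in muscle and 6.22 in brain, and for S100a9 5.99 and 5.09. The normal hypothalami held a handful of S100a8 reads, and the fitted change was 6.99 without normal mouse 2 and 9.47 without normal mouse 3.

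The neutrophil marker list holds these same genes and is no separate evidence. Of 16 markers, 6 reached 1 TPM in each tissue: S100a8, S100a9, Ngp, Lcn2, Retnlg and Csf3r. Of these, 6 rose in muscle and 5 in brain, against 23.3% and 4.43% of all genes. The first 5 named reached the level through the cachectic libraries, so their rise was part of their selection. The summed level of the 16 was 387, 78.6 and 144 CPM in cachectic against 2.56 to 3.50 CPM in normal gastrocnemius, and 96.4, 34.9 and 29.5 CPM in cachectic against 4.996 to 5.66 CPM in normal hypothalamus. Camp, Ltf, Elane and Ly6g were at 0 in all normal muscles, and Cxcr2 and Ly6g at 0 in all normal hypothalami. Ngp, a neutrophil granule protein, was at 33.5, 5.62 and 0.999 CPM in the cachectic and 0, 0.0559 and 0.0539 CPM in the normal muscles and 10.5, 3.19 and 0.601 CPM in the cachectic and 0.0663, 0.03903 and 0.192 CPM in the normal hypothalami; its hypothalamus call was lost without normal hypothalamus 2 (adjusted p = 0.0668). Scgb3a1, a secreted secretoglobin of airway epithelium, rose too, with 1.499, 2.98 and 2.27 CPM in the cachectic and 0.111, 0.223 and 0.0539 CPM in the normal muscles and 0.826, 5.097 and 0.947 CPM in the cachectic and 0, 0.03903 and 0.0719 CPM in the normal hypothalami. The part of neutrophils in tissue or blood in the change of Lcn2 and S100a8 was not tested. These genes passed the level rule through the cachectic libraries: 23 of the 204 genes that rose in both were below 1 TPM in the normal libraries of a tissue, Lcn2, S100a8, S100a9, Ngp, Scgb3a1, Map3k6 and Osmr among them. Of the 5 genes that rose more in hypothalamus, Lrg1, Il1r1 and Icam1 also entered this way, at 0.213, 0.613 and 0.487 TPM in normal hypothalamus, so their rise there was part of their selection.

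Of 21 acute phase genes on the list, 8 were expressed in both tissues. Of the 8, 5 rose in muscle and 7 in brain, and 4 rose in both, with median log2 changes of 0.93 and 1.26. Among all genes 23.3% rose in muscle, 4.43% in brain and 2.01% in both. Lcn2 and Lrg1, which are among the 4, were below 1 TPM in normal hypothalamus, and Lcn2 also in normal muscle. Their rise there was thus part of their selection. On log2(TPM + 0.5) the counts of the list turned to 7 in muscle and 2 in brain. For 3 of the 8 the brain change lay above the muscle change by the test and for 1 below, against 0 and 2 on log2(TPM + 0.5); the median difference was -0.78 but 0.34 on that scale. The 1 was Serpina3n, a protease inhibitor of the acute phase, which rose by 3.68 ± 0.34 in muscle and 0.35 ± 0.07 in brain (difference 3.32 (95% interval 2.54 to 4.09, adjusted p = 4.98e-05)); its hypothalamus call was lost without normal hypothalamus 2 (adjusted p = 0.0527) or 3 (0.0585). Lrg1, a secreted leucine-rich glycoprotein of the acute phase and of blood vessels, was at 74.5, 49.8 and 92.2 CPM in the cachectic and 13.4, 14.3 and 17.3 CPM in the normal muscles, a 4.83-fold rise, and at 4.67, 3.41 and 2.26 CPM in the cachectic and 0.133, 0.137 and 0.192 CPM in the normal hypothalami, a 21.9-fold rise. The difference was -2.18 (95% interval -3.31 to -1.04, adjusted p = 0.00856), so Lrg1 rose more in hypothalamus, but on log2(TPM + 0.5) the difference was -0.29 and did not pass. Cp, the copper-carrying ferroxidase ceruloplasmin, rose by 0.92 ± 0.22 (SE) and 1.1 ± 0.11, with a difference of -0.19 (95% interval -0.75 to 0.37). C3, the central complement component, was at 11.4, 6.37 and 10.9 CPM in the cachectic and 3.29, 2.48 and 2.18 CPM in the normal hypothalami and rose by 1.84 ± 0.22; in muscle its log2 value was 0.49 ± 0.18 (adjusted p = 0.05896), although the groups did not overlap. The difference for C3, -1.36 (95% interval -2.05 to -0.68, adjusted p = 0.00696), did not pass on log2(TPM + 0.5).

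**Figure D2:**
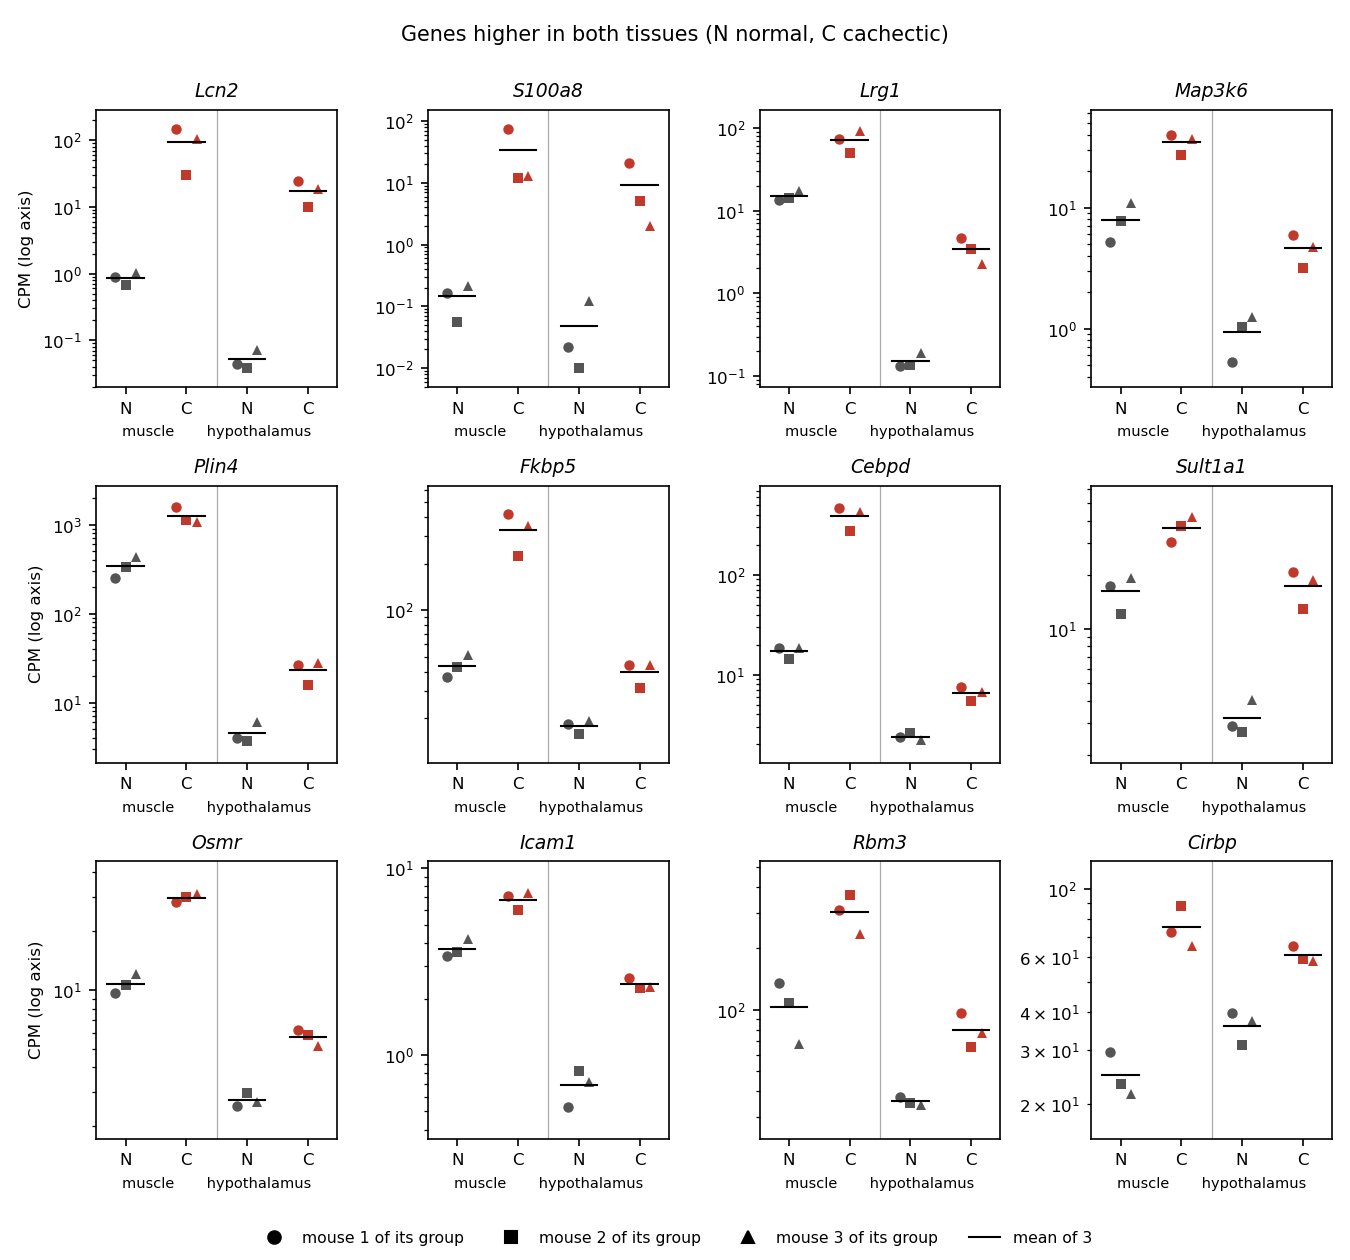
Level of 12 genes that rose in both tissues (y axis, TMM-normalised CPM on a log axis) in normal (N, grey) and cachectic (C, red) libraries of gastrocnemius and hypothalamus; circles, squares and triangles are mice 1, 2 and 3 of each group and the line is their mean. In each panel the 3 cachectic points lie above the 3 normal points in both tissues; the S100a8 value of 0 in normal hypothalamus 2 is drawn at the bottom of the axis.

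Many genes known to respond to glucocorticoids rose in both tissues. Of 28 such genes on the list, 18 rose and 2 fell in muscle, 16 rose in hypothalamus and 11 rose in both, with median log2 changes of 1.29 and 0.56 against 0.059 and -0.0053 over all 10132 genes. Among all genes 23.3% rose and 16.8% fell in muscle, 4.43% rose in hypothalamus and 2.01% rose in both. Lcn2 and Map3k6, which are among the 11, were at 0.107 and 0.857 TPM in normal hypothalamus. They reached the level there through the cachectic libraries, so that rise was part of their selection. Leaving out mice in turn gave 11 to 19 of the list that rose in hypothalamus, the lowest without cachectic mouse 1. Some of the 11 are on other lists too, so the lists are not independent. Lcn2 is also on the acute phase and neutrophil lists, Mt1 and Mt2 on the metallothionein list, and Cebpd on the list of IL-6 family receptors and STAT3 feedback. Fkbp5, a co-chaperone that restrains the glucocorticoid receptor, was at 418, 222 and 350.5 CPM in the cachectic and 36.98, 42.7 and 51.4 CPM in the normal muscles, a 7.602-fold rise. In hypothalamus it was at 44.02, 31.6 and 43.98 CPM in the cachectic and 18.3, 15.8 and 19.1 CPM in the normal hypothalami, a 2.24-fold rise, and the difference was 1.75 (95% interval 1.12 to 2.38, adjusted p = 0.000878). Map3k6, a stress-activated kinase, rose 4.38-fold and 4.91-fold, from 0.5303, 1.03 and 1.25 to 5.92, 3.17 and 4.76 CPM in hypothalamus; its difference was -0.18 (95% interval -1.12 to 0.76, adjusted p = 0.835) but 0.89 on log2(TPM + 0.5), where it passed. Plin4, a lipid droplet coat protein, was at 1566, 1134 and 1059 CPM in the cachectic and 252, 335 and 436 CPM in the normal muscles and at 26.3, 15.6 and 28.1 CPM in the cachectic and 3.999, 3.71 and 5.995 CPM in the normal hypothalami. It rose 3.697-fold and 5.13-fold, with a difference of -0.48 (95% interval -1.27 to 0.31, adjusted p = 0.377). Cebpd, a transcription factor induced by cytokines and glucocorticoids, rose 22.8-fold in muscle, from 18.4, 14.5 and 18.5 to 464, 275 and 424 CPM, and 2.75-fold in hypothalamus, from 2.34, 2.596 and 2.21 to 7.57, 5.47 and 6.73 CPM. The muscle change of Cebpd was the larger one (3.04 (95% interval 2.44 to 3.63, adjusted p = 1.85e-05)).

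Some metabolic enzymes and signalling genes outside the glucocorticoid list also rose in both tissues. Glul, glutamine synthetase, rose 2.95-fold in muscle and 1.45-fold in brain (difference 1.01 (95% interval 0.49 to 1.52, adjusted p = 0.00766)). Pnpla2, the lipase that starts triglyceride breakdown, rose 2.88-fold and 1.36-fold (difference 1.07 (95% interval 0.54 to 1.6, adjusted p = 0.00634)). Igfbp3, a binding protein of insulin-like growth factors, rose 6.02-fold and 1.53-fold (difference 1.96 (95% interval 1.18 to 2.74, adjusted p = 0.001697)). The hypothalamus calls of all 3 were lost when the contrast came from the 12-library fit (adjusted p = 0.197, 0.335 and 0.368). Prodh, which starts proline breakdown, rose by 1.36 ± 0.20 and 0.88 ± 0.09, and Agt, angiotensinogen, by 0.89 ± 0.20 and 0.82 ± 0.10. The differences for Prodh and Agt did not pass, at 0.47 (95% interval -0.02 to 0.96) and 0.05 (95% interval -0.45 to 0.56).

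Not every member of the glucocorticoid list moved in both. Sgk1, a kinase that regulates sodium transport, was at 172, 226 and 167 CPM in the cachectic and 235, 215 and 138 CPM in the normal muscles, where the groups overlapped, and at 66.4, 35.9 and 61.8 CPM in the cachectic and 22.4, 22.7 and 33.9 CPM in the normal hypothalami, where they did not. It rose by 1.05 ± 0.21 (SE), adjusted p = 0.01299 in hypothalamus, with a difference of -1.11 (95% interval -1.88 to -0.35, adjusted p = 0.0336). That call was lost with mouse as a block (adjusted p = 0.0767), and the hypothalamus call without cachectic hypothalamus 1 (0.0604) or normal hypothalamus 2 (0.0567). Cdkn1a, the cell cycle inhibitor p21, had a log2 change of 3.23 ± 0.24 (SE), adjusted p = 0.000162 in muscle and 0.84 ± 0.30 (SE), adjusted p = 0.105 in hypothalamus, with a difference of 2.38 (95% interval 1.39 to 3.36, adjusted p = 0.00214). Outside that list, Socs3, the feedback inhibitor of IL-6 family signalling, had 2.69 ± 0.34 (SE), adjusted p = 0.000872 and 0.45 ± 0.20 (SE), adjusted p = 0.193, with a difference of 2.23 (95% interval 1.29 to 3.16, adjusted p = 0.002296).

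The metallothioneins Mt1 and Mt2, small zinc-binding proteins encoded side by side on chromosome 8 and known to respond to zinc and glucocorticoids, had the highest differences of all 10132 genes tested, with muscle above brain. Promoters of both are shown with those of Sult1a1 and Il1r1, which rose more in hypothalamus, because their changes differed between the tissues in opposite directions. Sult1a1 and Il1r1 were picked after the search, as those of the 5 genes that rose more in hypothalamus whose windows hold AGAACA; Lrg1 and Vwf had lower differences, and the windows of Lrg1 and Icam1 held no AGAACA. Each is the run of 250 bases before the RefSeq start (GRCm38.p6), 5′ to 3′ along the gene. The Mt2 window is chr8:94172368-94172617 (plus strand), Mt1 chr8:94178839-94179088 (plus strand), Sult1a1 chr7:126676419-126676668 (minus strand) and Il1r1 chr1:40266336-40266585 (plus strand). Capitals in Mt2 and Mt1 mark the metal response element letters TGCGCNC or TGCACNC, and in Sult1a1 and Il1r1 the glucocorticoid element letters AGAACA, on either strand.
Mt2: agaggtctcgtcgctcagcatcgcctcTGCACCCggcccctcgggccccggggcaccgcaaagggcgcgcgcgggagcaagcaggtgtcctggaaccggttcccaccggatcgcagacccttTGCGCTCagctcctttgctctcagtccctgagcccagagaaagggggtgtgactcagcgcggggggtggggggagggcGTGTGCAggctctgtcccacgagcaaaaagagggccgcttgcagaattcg
Mt1: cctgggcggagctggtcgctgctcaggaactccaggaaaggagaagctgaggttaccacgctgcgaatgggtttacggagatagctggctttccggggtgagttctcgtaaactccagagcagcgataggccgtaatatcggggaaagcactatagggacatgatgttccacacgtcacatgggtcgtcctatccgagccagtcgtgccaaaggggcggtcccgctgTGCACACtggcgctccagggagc
Sult1a1: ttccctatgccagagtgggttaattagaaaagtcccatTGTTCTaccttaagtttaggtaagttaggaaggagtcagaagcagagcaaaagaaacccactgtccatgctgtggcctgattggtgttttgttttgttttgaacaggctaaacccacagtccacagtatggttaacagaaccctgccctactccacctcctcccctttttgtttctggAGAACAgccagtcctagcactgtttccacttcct
Il1r1: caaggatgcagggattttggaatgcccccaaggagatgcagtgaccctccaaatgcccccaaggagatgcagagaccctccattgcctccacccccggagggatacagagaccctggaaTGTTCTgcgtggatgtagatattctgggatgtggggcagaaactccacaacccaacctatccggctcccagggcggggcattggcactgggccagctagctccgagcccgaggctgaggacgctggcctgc
The Mt2 window held 3 matches, Mt1 held 1, Sult1a1 held 2 and Il1r1 held 1. Bases outside the 250 were not searched, so these are not counts for a whole promoter. Among windows of genes named in GENCODE, 77.03% ran into the early part of a GENCODE transcript of that gene. TGCGCNC was found in 12.5% of all 32851 promoter windows of this length, TGCACNC in 10.4% and AGAACA in 16.1%. Of the 204 genes that rose in both, 165 had 201 such windows in the table, and of the 171 that fell in both, 132 had 181. AGAACA was in 14.4% of the windows of the first set and 8.84% of the second, against 10.5% of the 10007 windows of all genes of both tissues. TGCGCNC was in 21.4% and 26.0%, against 22.8%, and TGCACNC in 11.9% and 8.29%, against 10.6%. The E-box CACGTG was in 11.9% and 4.97%, against 8.64%, the STAT letters TTCNNNGAA in 6.97% and 3.31%, against 5.61%, and the D-box TTATGTAA in 0 and 2 windows, against 39. The full palindromic glucocorticoid element was in 1 window of all genes of both tissues, and in neither set. Matches are descriptions of letters and overlap of motifs was not removed.

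Mt1 was at 1700.1, 533 and 3092 CPM in the cachectic and 18.9, 30.999 and 44.2 CPM in the normal muscles and Mt2 at 814, 372 and 1733 CPM in the cachectic and 10.8, 11.4 and 13.4 CPM in the normal muscles, rises of 56.8-fold and 82.3-fold. Cachectic mouse 3 was highest and mouse 2 lowest for both genes, and without the cachectic muscle 3 library the log2 changes went from 5.83 to 5.16 and from 6.36 to 5.65. In hypothalamus Mt1 was at 337, 227 and 255 CPM in the cachectic and 129.8, 209 and 185 CPM in the normal hypothalami and Mt2 at 145, 106 and 121 CPM in the cachectic and 68.5, 90.7 and 101 CPM in the normal hypothalami. Those groups did not overlap, but the changes were small, 0.64 ± 0.17 and 0.51 ± 0.13, and each call was lost without 1 of 4 single libraries: Mt1 without cachectic hypothalamus 1 (adjusted p = 0.139), cachectic 3 (0.0668), normal 1 (0.0638) or normal 3 (0.0797), and Mt2 without cachectic hypothalamus 1 (0.144), cachectic 3 (0.0785), normal 1 (0.0674) or normal 2 (0.0935). The differences were 5.18 (95% interval 3.68 to 6.67, adjusted p = 0.000192) and 5.84 (95% interval 4.58 to 7.11, adjusted p = 3.25e-05). Of 17 metallothionein and zinc transporter genes, 4 rose and 4 fell in muscle (1 or 2 fell when any single muscle library was left out), and 2 rose in brain, which were Mt1 and Mt2. The share that rose in muscle was near the 23.3% of all genes.

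Single receptors of inflammatory cytokines and single genes of the vessel wall rose in both tissues, but their lists as a whole were mixed. Of 18 genes of IL-6 family receptors and STAT3 feedback, 7 rose and 4 fell in muscle, 3 rose and 2 fell in brain, and 2 rose in both, which were Osmr and Cebpd. Over all genes 23.3% rose and 16.8% fell in muscle, and 4.43% rose and 5.41% fell in brain. The ciliary neurotrophic factor receptor Cntfr fell in both, by 3.2 ± 0.38 and 0.21 ± 0.05 on the log2 scale, and the leukaemia inhibitory factor receptor Lifr fell by 0.74 ± 0.13 in muscle and rose by 0.40 ± 0.07 in brain. The hypothalamus call of Cntfr was lost without cachectic hypothalamus 2 (adjusted p = 0.105), cachectic hypothalamus 3 (0.101) or normal hypothalamus 2 (0.131), and the muscle call of Lifr on log2(TPM + 0.5) (0.367). Osmr, the receptor subunit for oncostatin M of the IL-6 family, was at 28.2, 30.1 and 30.95 CPM in the cachectic and 9.62, 10.6 and 12.01 CPM in the normal muscles and at 6.23, 5.896 and 5.16 CPM in the cachectic and 2.54, 2.95 and 2.66 CPM in the normal hypothalami, rises of 2.78-fold and 2.099-fold. Its difference was 0.39 (95% interval 0.04 to 0.75, adjusted p = 0.0973). Il1r1, the signalling receptor for interleukin-1, was at 14.8, 16.9 and 13.5 CPM in the cachectic and 10.4, 11.5 and 8.401 CPM in the normal muscles, a small rise whose call was lost without cachectic muscle 2 (adjusted p = 0.0554), normal muscle 1 (0.0694) or normal muscle 3 (0.0755). In hypothalamus Il1r1 was at 5.33, 5.57 and 5.77 CPM in the cachectic and 1.94, 1.66 and 1.61 CPM in the normal hypothalami, a 3.18-fold rise in which no library overlapped. The difference was -1.1 (95% interval -1.53 to -0.67, adjusted p = 0.00143) and did not pass on log2(TPM + 0.5).

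Vwf, the von Willebrand factor of endothelial cells, was at 20.9, 19.7 and 14.9 CPM in the cachectic and 3.07, 3.26 and 2.83 CPM in the normal hypothalami, a 5.99-fold rise. In muscle it was at 39.8, 33.99 and 33.5 CPM in the cachectic and 23.1, 23.01 and 20.6 CPM in the normal muscles, a 1.62-fold rise, so the hypothalamus had the larger change (difference -1.9 (95% interval -2.3 to -1.5, adjusted p = 2.74e-05); adjusted p = 0.0608 on log2(TPM + 0.5)). Icam1, the adhesion molecule that leukocytes bind on endothelium, rose by 0.88 ± 0.18 in muscle and 1.78 ± 0.19 in brain; its difference, -0.91 (95% interval -1.46 to -0.37, adjusted p = 0.01801), was lost with library totals and on log2(TPM + 0.5). Sult1a1, a sulfotransferase that conjugates phenols and catecholamines, was at 30.4, 37.2 and 41.98 CPM in the cachectic and 17.4, 12.1 and 19.2 CPM in the normal muscles and at 20.6, 12.97 and 18.7 CPM in the cachectic and 2.89, 2.69 and 4.05 CPM in the normal hypothalami. It rose 2.26-fold in muscle and 5.44-fold in hypothalamus, with a difference of -1.28 (95% interval -1.94 to -0.62, adjusted p = 0.00773). Of 19 endothelial markers expressed in both tissues, 5 rose and 3 fell in muscle, 5 rose and 1 fell in brain, and 3 rose in both. The muscle shares are near the 23.3% and 16.8% of all genes, and in brain 4.43% of all genes rose and 5.41% fell. The muscle change lay below the brain change for 5 and above it for 1 (below for 3 without normal mouse 1 or normal mouse 3), but on log2(TPM + 0.5) below for 2 and above for 4, and the median difference went from -0.25 to 0.098. The summed level of all 23 markers was 222 to 261 CPM in cachectic against 163 to 194 CPM in normal hypothalamus, and 595 to 665 against 565 to 740 CPM in muscle. The part of vessel content in these changes was not tested.

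Globin genes and Alas2 rose in both tissues, as did 2.01% of all genes. Of 6 erythroid markers expressed in both, 5 rose in muscle and in brain, and Bpgm, a red cell enzyme that makes bisphosphoglycerate, fell by 1.43 ± 0.24 in muscle, with -0.05 ± 0.05 in brain (difference -1.4 (95% interval -1.95 to -0.85, adjusted p = 0.001598)). The differences of the other 5 did not pass, but 2 passed with muscle above brain on log2(TPM + 0.5). Alas2, the haem synthesis enzyme of red cell precursors, was at 16.3, 12.6 and 11.8 CPM in the cachectic and 4.06, 3.97 and 5.22 CPM in the normal muscles and at 5.76, 6.44 and 5.62 CPM in the cachectic and 1.72, 2.97 and 2.01 CPM in the normal hypothalami. Its difference was 0.23 (95% interval -0.38 to 0.84). Hba-a1, an alpha globin that shares reads with its near-identical copy Hba-a2, rose by 1.48 ± 0.28 and 1.23 ± 0.11, with a difference of 0.23 (95% interval -0.47 to 0.94). The summed level of the 9 erythroid markers was 1276 to 1338 CPM in cachectic against 431 to 774 CPM in normal muscle, and 443 to 523 against 228 to 326 CPM in hypothalamus. Blood left in the tissues was not tested.

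Rbm3 and Cirbp, RNA-binding proteins known to be induced by mild cold, rose together in both tissues. Rbm3 was at 309, 366 and 235 CPM in the cachectic and 136, 108 and 67.8 CPM in the normal muscles and at 96.5, 65.5 and 77.4 CPM in the cachectic and 37.5, 35.1 and 34.2 CPM in the normal hypothalami, rises of 2.94-fold and 2.23-fold. Its difference was 0.38 (95% interval -0.29 to 1.06, adjusted p = 0.411). Cirbp was at 72.4, 88.2 and 65.5 CPM in the cachectic and 29.7, 23.3 and 21.6 CPM in the normal muscles and at 65.5, 59.4 and 58.2 CPM in the cachectic and 39.7, 31.1 and 37.3 CPM in the normal hypothalami, with rises of 3.05-fold and 1.68-fold and a difference of 0.84 (95% interval 0.41 to 1.27, adjusted p = 0.00737). Neither gene's libraries overlapped in either tissue, and both calls held in all 28 settings.

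Ribosomal protein genes formed a group by number: 27 of the 204 gene symbols that rose in both were ribosomal protein genes or their pseudogenes, whose reads may be shared. Of the 74 cytosolic ribosomal protein genes, 67 rose in muscle, 24 in hypothalamus and 22 in both, and for 48 the muscle change lay above the brain change. The shares of all genes were 23.3%, 4.43%, 2.01% and 20.1%, in that order. The median log2 change of the 74 was 0.90 in muscle and 0.21 in brain. Rpl3, a subunit near the peptidyl transferase centre, was at 128, 76.3 and 152 CPM in the cachectic and 35.03, 28.1 and 30.2 CPM in the normal muscles and at 269, 235 and 244 CPM in the cachectic and 188, 195 and 202 CPM in the normal hypothalami, 3.84-fold and 1.27-fold rises. The hypothalamus count of 24 fell to 3 without cachectic mouse 1, 4 without normal mouse 1 and 3 without normal mouse 2, and it was 1 on log2(TPM + 0.5), while the muscle count stayed at 67 to 74 across scalings. Of 34 translation factors, 22 rose in muscle.

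Genes of cholesterol and fatty acid synthesis were among the 171 that fell in both tissues. Of 23 genes of cholesterol synthesis and its regulation, 11 fell and 4 rose in muscle, 12 fell and 1 rose in hypothalamus, 7 fell in both and 2 went opposite ways, with median log2 changes of -0.36 and -0.30. On log2(TPM + 0.5) the muscle counts turned to 3 that fell and 6 that rose, and the difference, which passed for 4 with muscle above brain and 7 below, passed for 8 above and 2 below. Without cachectic mouse 1 or normal mouse 1 the muscle count was 7, and leaving out any mouse gave 9 to 11 in hypothalamus. Among all genes 16.8% fell and 23.3% rose in muscle, 5.41% fell and 4.43% rose in hypothalamus, and 1.69% fell in both. The difference passed for 20.1% of all genes with muscle above brain and 15.3% below. Hmgcs1, the synthase that feeds HMG-CoA into the pathway, was at 26.9, 33.3 and 29.6 CPM in the cachectic and 60.3, 60.4 and 58.4 CPM in the normal muscles and at 129, 150.3 and 141 CPM in the cachectic and 211, 219 and 196 CPM in the normal hypothalami. It fell by 0.99 ± 0.12 and 0.58 ± 0.07 on the log2 scale, and held in all 28 settings. The difference for Hmgcs1, -0.42 (95% interval -0.72 to -0.13, adjusted p = 0.0359), was lost with mouse as a block (adjusted p = 0.0582) and without any of 7 single libraries. Dhcr7, the last enzyme of the main route to cholesterol, was at 2.68, 2.22 and 3.36 CPM in the cachectic and 10.3, 10.7 and 12.5 CPM in the normal muscles and at 22.03, 24.01 and 22.3 CPM in the cachectic and 33.7, 33.9 and 29.4 CPM in the normal hypothalami, with a difference of -1.5 (95% interval -1.89 to -1.11, adjusted p = 9.48e-05). Scd1, the desaturase that makes monounsaturated fatty acids, was at 19.3, 21.004 and 30.1 CPM in the cachectic and 249.9, 124 and 108 CPM in the normal muscles, 6.82-fold lower. In hypothalamus Scd1 was at 121, 148 and 136 CPM in the cachectic and 220.3, 228 and 213 CPM in the normal hypothalami, 1.64-fold lower, and its difference was -2.07 (95% interval -2.86 to -1.28, adjusted p = 0.00122). The median difference of the cholesterol list was -0.30, but 0.33 on log2(TPM + 0.5).

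Some myelin genes fell in both tissues, at far lower levels in muscle than in brain. Of 16 markers of myelinating glia, 5 reached 1 TPM in both tissues. Of these 5, 3 fell in muscle, 4 in hypothalamus and 3 in both, against 16.8%, 5.41% and 1.69% of all genes. Mbp, myelin basic protein, was at 13.2, 18.3 and 12.2 CPM in the cachectic and 27.5, 31.3 and 32.2 CPM in the normal muscles and at 992, 982 and 893 CPM in the cachectic and 1483, 1558 and 1381 CPM in the normal hypothalami. Pmp22, a membrane protein of peripheral myelin, fell by 1.05 ± 0.13 in muscle and 0.55 ± 0.10 in hypothalamus. Enpp2, which makes lysophosphatidic acid and is abundant in oligodendrocytes, fell by 1.33 ± 0.14 and 0.70 ± 0.09, with a difference of -0.65 (95% interval -1.02 to -0.28, adjusted p = 0.0132). The summed level of the 16 markers was 2198 to 2327 CPM in cachectic against 3193 to 3555 CPM in normal hypothalamus, and 69.4 to 91.6 against 165 to 215 CPM in muscle.

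Myoc, myocilin, a secreted glycoprotein, had the largest fall shared by both tissues that held in all 28 settings. It was at 6.63, 10.5 and 7.26 CPM in the cachectic and 23.6, 31.4 and 15.3 CPM in the normal muscles and at 1.51, 3.36 and 2.25 CPM in the cachectic and 12.4, 7.98 and 7.94 CPM in the normal hypothalami, 2.89-fold and 4.01-fold lower, with a difference of 0.45 (95% interval -0.48 to 1.37, adjusted p = 0.493). Lpar1, a receptor for lysophosphatidic acid, fell by nearly the same log2 value in both, 0.83 ± 0.17 and 0.89 ± 0.14 (difference 0.05, 95% interval -0.48 to 0.58). Alpl, tissue-nonspecific alkaline phosphatase, fell by 2.46 ± 0.26 and 0.83 ± 0.12, more in muscle (difference -1.65 (95% interval -2.3 to -1.01, adjusted p = 0.00147)). Gamt, which makes creatine from guanidinoacetate, fell 29.03-fold in muscle, from 26.7, 35.4 and 16.1 to 0.6696, 0.585 and 1.41 CPM, and 1.61-fold in brain, from 7.34, 6.75 and 6.91 to 4.13, 5.19 and 3.88 CPM. Its difference was -4.2 (95% interval -5.11 to -3.29, adjusted p = 3.25e-05). Gdf11, a secreted relative of myostatin, fell by 3.32 ± 0.22 and 0.48 ± 0.08, with a difference of -2.86 (95% interval -3.36 to -2.36, adjusted p = 9.84e-06).

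Heat shock chaperones fell broadly in hypothalamus, and fewer of them fell in muscle. Of 25 such genes, 16 fell in hypothalamus, where 5.41% of all genes fell, and in muscle 5 rose and 4 fell. Those muscle shares are near the 23.3% and 16.8% of all genes. The difference between tissues passed for 5 of the 25 with muscle above brain and 2 below. It passed for 20.1% and 15.3% of all genes, so the share above is no higher than theirs. On log2(TPM + 0.5) it passed for 12 above and 0 below. The 4 that fell in both were Dnaja1, Hspa4l, Dnajb1 and Chordc1, and Hsp90ab1 rose in muscle and fell in brain. The median log2 change was -0.07 in muscle (0.13 with library totals and 0.30 on log2(TPM + 0.5)) and -0.40 in hypothalamus. Normal mouse 2 stood apart: the inducible HSP70 gene Hspa1a was at 34.7, 5.03 and 22.1 CPM in the cachectic and 9.899, 271 and 61.9 CPM in the normal muscles and at 7.41, 8.83 and 7.84 CPM in the cachectic and 11.98, 84.8 and 15.4 CPM in the normal hypothalami, and its near-identical copy Hspa1b at 7.62, 295 and 38.8 CPM in normal muscles and 7.36, 69.9 and 12.2 CPM in normal hypothalami. The muscle value of Hspa1a did not pass (-2.45 ± 1.04 (SE), adjusted p = 0.0955), and in hypothalamus its log2 fall went from -2.23 to -0.77 without that library. Without both libraries of normal mouse 2, 11 of the 25 fell in hypothalamus and 3 in muscle; without cachectic mouse 1 the hypothalamus count was 9, and without normal mouse 1 the muscle count was 8. The part of that mouse's state in the counts was not tested beyond this. Dnajb1, the HSP40 partner of HSP70, had log2 changes of -1.27 ± 0.44 (SE), adjusted p = 0.0489 in muscle and -1.07 ± 0.26 (SE), adjusted p = 0.0326 in brain, and its muscle call was lost without any single muscle library but normal muscle 3.

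Outside the chaperone list, among the collagen and matrix genes, Serpinh1, the collagen-specific chaperone HSP47, was at 20.6, 16.7 and 27.9 CPM in the cachectic and 67.1, 125 and 111 CPM in the normal muscles and at 6.32, 8.55 and 6.72 CPM in the cachectic and 11.9, 17.5 and 13.8 CPM in the normal hypothalami, 4.605-fold and 2.02-fold lower, without overlap. Its difference, -1.2 (95% interval -1.92 to -0.49, adjusted p = 0.0176), was lost without cachectic hypothalamus 2 (adjusted p = 0.0509). P4ha1, a collagen prolyl hydroxylase subunit, fell by 1.31 ± 0.21 and 0.85 ± 0.12. On the chaperone list, Hsph1, an HSP110 nucleotide exchange factor, was at 110.4, 143 and 144 CPM in the cachectic and 223, 342 and 256 CPM in the normal hypothalami and fell 2.07-fold there. Hsp90ab1, the constitutive HSP90, rose in muscle, with 3818, 4038 and 3505 CPM in the cachectic and 1676, 2352 and 2209.7 CPM in the normal muscles, and fell in hypothalamus, with 1103, 1075 and 1107 CPM in the cachectic and 1292, 1545 and 1354 CPM in the normal hypothalami. The difference for Hsp90ab1 was 1.22 (95% interval 0.79 to 1.64, adjusted p = 0.000714).

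**Figure D3:**
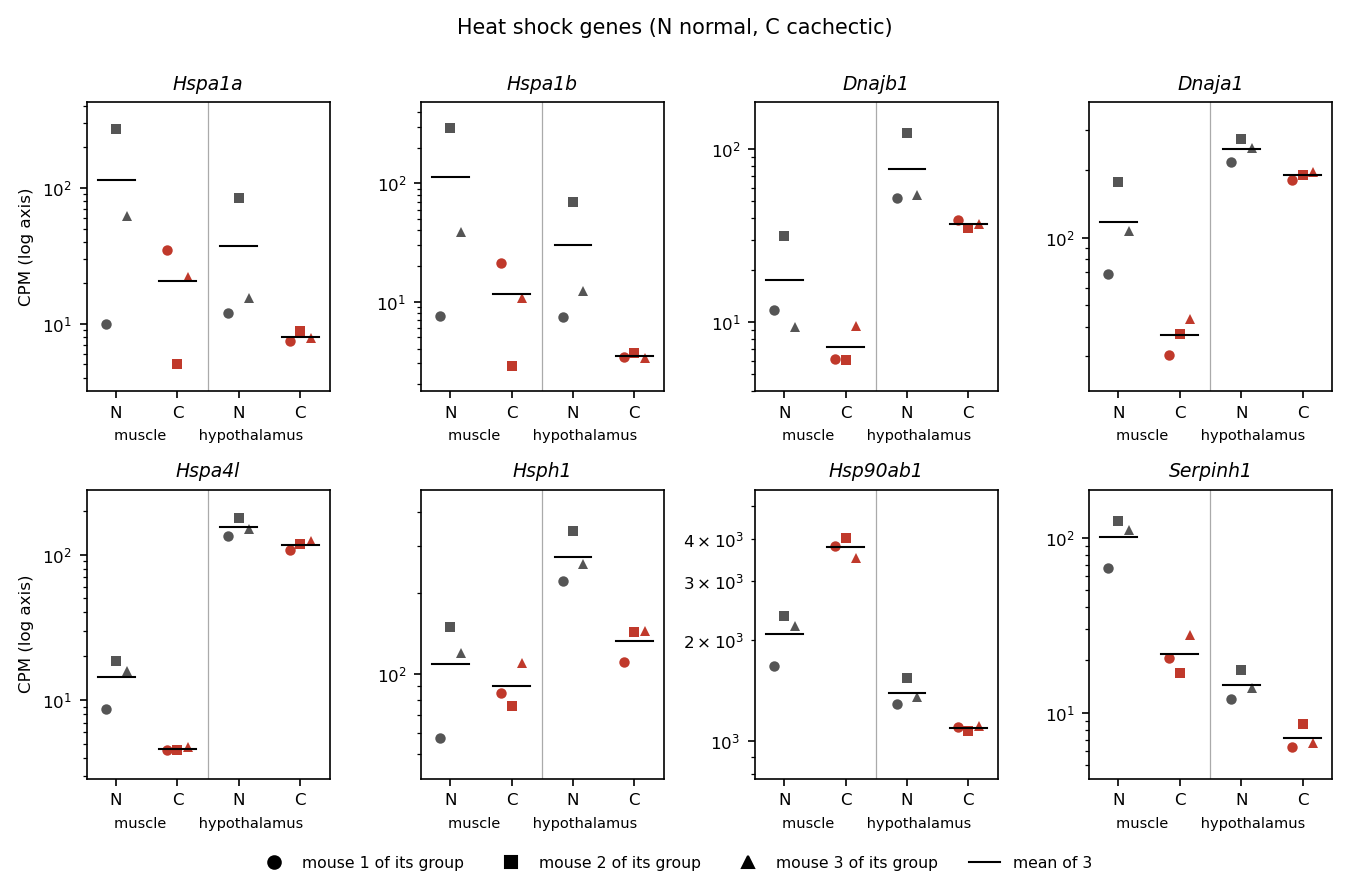
Level of 8 heat shock chaperone genes (y axis, TMM-normalised CPM on a log axis) in normal (N, grey) and cachectic (C, red) libraries of gastrocnemius and hypothalamus; circles, squares and triangles are mice 1, 2 and 3 and the line is their mean. Normal mouse 2 (square) is the highest point for Hspa1a and Hspa1b in both tissues, and Serpinh1 is lower in all cachectic libraries of both.

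Genes that changed in opposite directions included the atrophy ligase of muscle and genes of the extracellular matrix. Fbxo32, atrogin-1, a muscle ubiquitin ligase induced in wasting, was at 3300.1, 2811 and 2514 CPM in the cachectic and 179, 295 and 271 CPM in the normal muscles, a 11.6-fold rise. In hypothalamus it was at 5.05, 6.72 and 5.94 CPM in the cachectic and 8.33, 8.37 and 8.202 CPM in the normal hypothalami, 1.41-fold lower without overlap, a call lost without cachectic hypothalamus 1 (adjusted p = 0.0631), cachectic hypothalamus 3 (0.06799) or normal hypothalamus 2 (0.0696). The difference was 4.02 (95% interval 3.46 to 4.58, adjusted p = 1.63e-06). Itga7, the laminin receptor subunit of muscle fibres, was at 174, 146 and 159 CPM in the cachectic and 79.1, 77.4 and 74.4 CPM in the normal muscles and at 6.37, 6.51 and 6.42 CPM in the cachectic and 9.63, 10.5 and 8.75 CPM in the normal hypothalami. It was the 1 gene of the 112 that kept its class in all 28 settings, with a difference of 1.63 (95% interval 1.35 to 1.92, adjusted p = 9.32e-06).

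Cholesterol synthesis also held 2 genes of this kind. Fdft1, squalene synthase, was at 259, 234 and 179 CPM in the cachectic and 76.2, 91.6 and 84.6 CPM in the normal muscles and at 64.2, 63.4 and 63.9 CPM in the cachectic and 83.7, 85.5 and 79.95 CPM in the normal hypothalami; it rose 2.68-fold in muscle and fell 1.31-fold in brain (difference 1.79 (95% interval 1.42 to 2.16, adjusted p = 2.59e-05)). Mvd, a decarboxylase of the mevalonate pathway, was at 15.3, 6.79 and 15.1 CPM in the cachectic and 4.89, 4.24 and 5.17 CPM in the normal muscles and at 6.49, 6.76 and 6.04 CPM in the cachectic and 9.68, 10.1 and 9.09 CPM in the normal hypothalami (difference 1.97 (95% interval 1.27 to 2.68, adjusted p = 0.000805)). Of the 4 genes of the list that rose in muscle, Fdft1 and Mvd were thus the 2 that fell in hypothalamus.

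Some matrix genes went the other way, falling in muscle and rising in brain. Fn1, fibronectin, was at 35.01, 14.5 and 32.95 CPM in the cachectic and 94.8, 94.7 and 75.2 CPM in the normal muscles, 3.18-fold lower, and at 33.7, 36.3 and 29.4 CPM in the cachectic and 14.5, 17.2 and 17.5 CPM in the normal hypothalami, 2.005-fold higher. Sparc, a secreted collagen-binding protein, was at 204, 188 and 237 CPM in the cachectic and 654, 768 and 473 CPM in the normal muscles and at 1527, 1349 and 1444 CPM in the cachectic and 1007, 1009.7 and 1011 CPM in the normal hypothalami. Neither gene's groups overlapped in either tissue, and the differences were -2.68 (95% interval -3.41 to -1.95, adjusted p = 0.000131) for Fn1 and -2.11 (95% interval -2.58 to -1.63, adjusted p = 4.19e-05) for Sparc. Tcim, a small regulator of Wnt signalling, fell by 1.44 ± 0.34 in muscle and rose by 1.04 ± 0.17 in brain (difference -2.49 (95% interval -3.48 to -1.51, adjusted p = 0.00156)). Tfrc, the transferrin receptor that takes up iron, was at 33.2, 90.5 and 88.6 CPM in the cachectic and 256, 123 and 166 CPM in the normal muscles and at 57.3, 54.4 and 60.3 CPM in the cachectic and 32.5, 28.4 and 36.5 CPM in the normal hypothalami. Its muscle call was lost without normal muscle 1 (adjusted p = 0.0943) or normal muscle 3 (0.0532), and its difference was -2.19 (95% interval -3.15 to -1.22, adjusted p = 0.00324). Of 38 collagen and matrix genes, 29 fell in muscle, 6 rose and 3 fell in hypothalamus (3 rose without cachectic mouse 1), and 4 went opposite ways. The shares of all genes were 16.8% that fell in muscle, and 4.43% that rose and 5.41% that fell in hypothalamus. The median log2 change of the 38 was -1.17 in muscle and 0.06 in brain (-0.53 and -0.00014 on log2(TPM + 0.5)). For 26 the muscle change lay below the brain change, against 15.3% of all genes. On log2(TPM + 0.5) 19 fell in muscle and 17 lay below, and with library totals 22 and 23. The 13 fibroblast markers summed to 999 to 1454 CPM in cachectic against 2385 to 3692 CPM in normal muscle, and to 488 to 505 against 486 to 521 CPM in hypothalamus, and the part of fibroblast content was not tested.

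Cyp2f2, a xenobiotic-metabolising cytochrome P450, had the lowest difference of all, -6.78 (95% interval -8.54 to -5.01, adjusted p = 0.0000958). It was at 0.478, 0.761 and 0.227 CPM in the cachectic and 5.56, 8.43 and 6.62 CPM in the normal muscles and at 1.51, 4.42 and 1.04 CPM in the cachectic and 0.508, 0.215 and 0.168 CPM in the normal hypothalami. Cachectic hypothalamus 2 was the highest; without it the hypothalamus log2 change went from 2.92 to 2.06, and that call was lost without normal hypothalamus 2 (adjusted p = 0.0673) or 3 (0.0545).

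**Figure D4:**
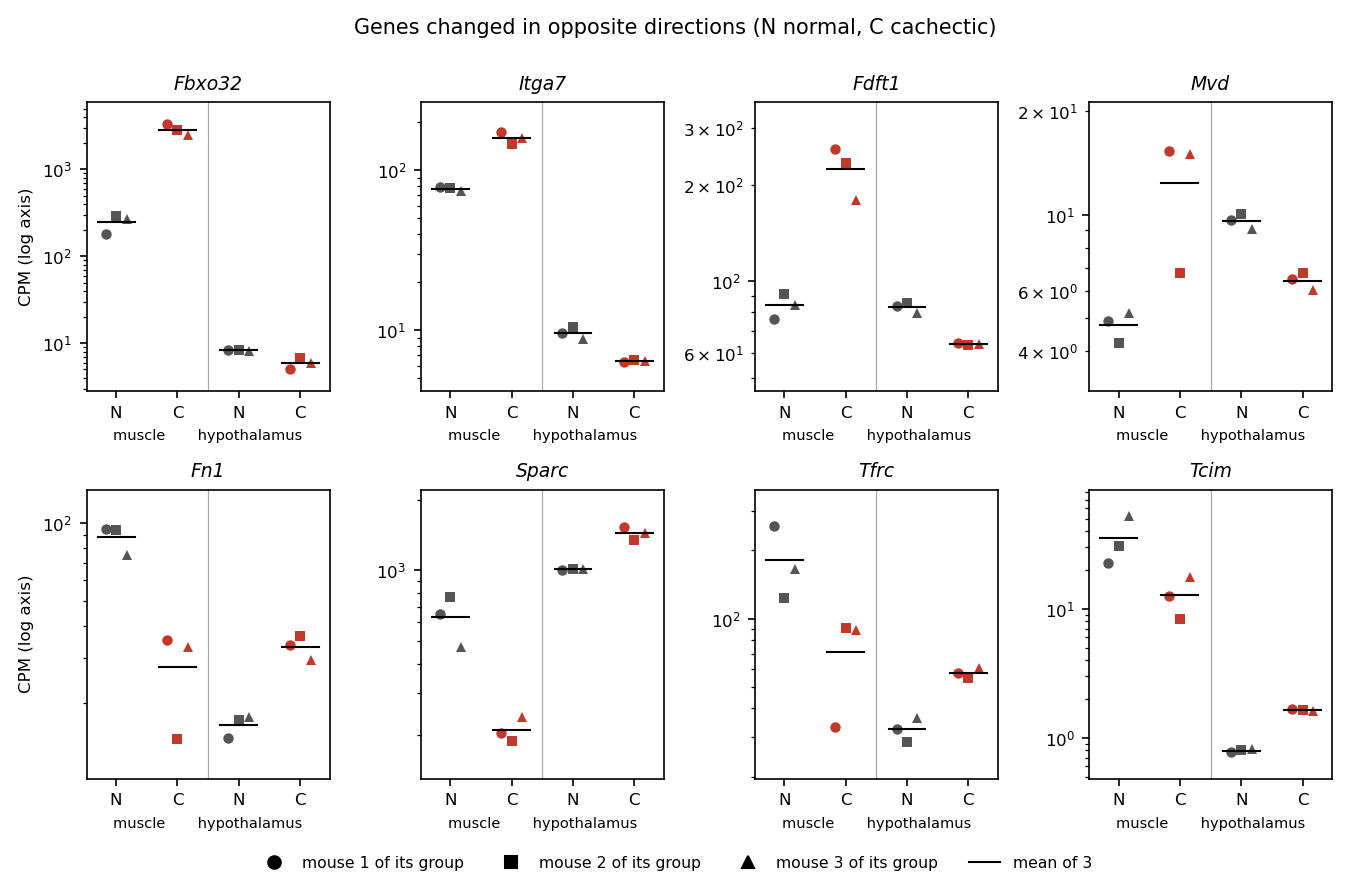
Level of 8 genes that changed in opposite directions (y axis, TMM-normalised CPM on a log axis) in normal (N, grey) and cachectic (C, red) libraries of gastrocnemius and hypothalamus; circles, squares and triangles are mice 1, 2 and 3 and the line is their mean. Fbxo32, Itga7, Fdft1 and Mvd are higher in cachectic muscle and lower in cachectic hypothalamus, and Fn1, Sparc, Tfrc and Tcim the reverse.

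Protein breakdown set the tissues apart. Of 32 proteasome subunits, 29 rose in muscle and 1 in hypothalamus, and for 27 the muscle change lay above the brain change, with median log2 changes of 0.89 and 0.05. Psmd2, a subunit of the regulatory particle, rose by 1.4 ± 0.12 in muscle against 0.04 ± 0.05 in brain (difference 1.35 (95% interval 1.09 to 1.61, adjusted p = 1.67e-05)). Of 40 autophagy and lysosome genes, 23 rose and 3 fell in muscle, 1 rose and 1 fell in hypothalamus, and for 21 the muscle change was above (15 rose in muscle without normal mouse 1). Ctsl, the lysosomal protease cathepsin L, was at 423, 377 and 288 CPM in the cachectic and 88.4, 109 and 87.4 CPM in the normal muscles and at 58.004, 53.98 and 53.4 CPM in the cachectic and 50.9, 52.5 and 55.4 CPM in the normal hypothalami, where the log2 value was 0.05 ± 0.05 (SE), adjusted p = 0.601. Its difference was 1.88 (95% interval 1.47 to 2.28, adjusted p = 3.33e-05). Of 24 ubiquitin genes and atrophy ligases, 11 rose and 2 fell in muscle, against 3 and 1 in brain. For comparison with these lists, 23.3% of all genes rose and 16.8% fell in muscle. In brain 4.43% of all genes rose and 5.41% fell, and the muscle change lay above by the test for 20.1%.

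Some genes of growth factor and stress signalling also differed between the tissues. Of 37 genes of insulin, IGF, AKT and FOXO signalling, 16 rose and 8 fell in muscle, 4 rose and 2 fell in brain, and the difference passed for 17 with muscle above brain and 8 below (9 above without normal mouse 2 or normal mouse 3). Over all genes 23.3% rose and 16.8% fell in muscle, and 4.43% rose and 5.41% fell in brain. The difference passed for 20.1% of all genes with muscle above brain and 15.3% below, so the counts that fell or lay below are near those shares. Foxo1, a forkhead factor that switches on atrophy genes, rose by 1.78 ± 0.27 (SE), adjusted p = 0.00182 in muscle, with 0.10 ± 0.07 (SE), adjusted p = 0.401 in brain and a difference of 1.66 (95% interval 1.02 to 2.3, adjusted p = 0.00131). Akt1, the kinase that restrains FOXO factors, was at 341, 309 and 279 CPM in the cachectic and 61.3, 60.7 and 71.6 CPM in the normal muscles, a 4.83-fold rise without overlap, and at 100, 92.2 and 93.2 CPM in the cachectic and 87.2, 91.7 and 92.4 CPM in the normal hypothalami. The difference for Akt1 was 2.19 (95% interval 1.89 to 2.49, adjusted p = 1.63e-06). Eif4ebp1, an inhibitor of cap-dependent translation, rose by 3.37 ± 0.17 in muscle, with 0.51 ± 0.19 in brain, where it did not pass (difference 2.84 (95% interval 2.35 to 3.32, adjusted p = 7.86e-06)). Sesn1, a sestrin that senses leucine, was at 372, 124 and 250.5 CPM in the cachectic and 16.5, 21.5 and 21.5 CPM in the normal muscles, with log2 changes of 3.66 ± 0.38 in muscle and 0.15 ± 0.06 in brain. Stat3, the transcription factor of IL-6 signalling, rose by 1.2 ± 0.16 (SE), adjusted p = 0.000992 in muscle and had -0.05 ± 0.05 (SE), adjusted p = 0.562 in brain (difference 1.23 (95% interval 0.88 to 1.59, adjusted p = 0.000181)). Igfbp5, a binding protein of insulin-like growth factors, fell from 1327, 1392 and 896 to 28.3, 78.5 and 43.5 CPM in muscle, with a difference of -4.39 (95% interval -5.27 to -3.51, adjusted p = 2.10e-05).

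Genes of the endoplasmic reticulum (ER) and of mitochondria were counted in the same way. Of 26 genes of ER folding and the unfolded protein response, 12 rose in muscle, 6 fell in hypothalamus and 3 did both. The shares of all genes were 23.3%, 5.41% and 0.681%. For 12 of the 26 the muscle change lay above, against 20.1% of all genes. The muscle count was 6 without normal mouse 1, and the 6 hypothalamus calls were all lost without cachectic mouse 1, normal mouse 2 or normal mouse 3. Xbp1, a transcription factor of that response, rose by 1.31 ± 0.15 (SE), adjusted p = 0.000654 in muscle, with -0.14 ± 0.08 (SE), adjusted p = 0.303 in brain (difference 1.44 (95% interval 1.05 to 1.83, adjusted p = 0.000132)). Of the 13 mitochondrially encoded protein genes, 11 fell in muscle and 2 in hypothalamus, with median log2 changes of -1.06 and -0.12, and for 5 the difference passed. The muscle count was 2 without cachectic mouse 1, 3 without cachectic mouse 3, 5 without normal mouse 1 and 3 without normal mouse 3. Among all genes 16.8% fell in muscle and 5.41% in hypothalamus. mt-Co2, a subunit of cytochrome c oxidase, had log2 changes of -1.44 ± 0.14 and -0.20 ± 0.13. Of 36 nuclear complex I subunits, 12 fell and 1 rose in muscle and 1 rose in brain, and of 41 nuclear subunits of complexes II to V, 13 fell in muscle and 1 in brain. Those muscle counts were 5 and 4 with library totals, and 4 and 3 on log2(TPM + 0.5), and they ran from 4 without normal mouse 3 to 20 and 28 without cachectic mouse 3. The difference passed with muscle below brain for 7 of the 36 and 9 of the 41, against 15.3% of all genes (2 and 4 with library totals, and 18 and 23 without cachectic mouse 3). Ndufs1, a core complex I subunit, fell by 1.03 ± 0.14 in muscle, with 0.11 ± 0.05 (SE), adjusted p = 0.211 in hypothalamus (difference -1.15 (95% interval -1.45 to -0.85, adjusted p = 0.0000952)).

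In the polyamine pathway, 7 of 14 genes fell and 4 rose in muscle and 2 rose in brain. Over all genes 16.8% fell and 23.3% rose in muscle, and 4.43% rose in brain. Amd1, which supplies decarboxylated S-adenosylmethionine and shares reads with its near-identical copy Amd2, had log2 changes of -3.96 ± 0.30 and -0.10 ± 0.05 (difference -3.88 (95% interval -4.53 to -3.23, adjusted p = 7.86e-06)). Of 14 core clock genes, 5 rose and 3 fell in muscle, and 2 rose and 1 fell in brain. Without cachectic mouse 2, 4 rose and 6 fell in muscle, and on log2(TPM + 0.5) none passed in brain; over all genes 23.3% rose and 16.8% fell in muscle. Arntl, which encodes the clock activator BMAL1, rose by 1.32 ± 0.15 (SE), adjusted p = 0.000574 in muscle, with -0.25 ± 0.08 (SE), adjusted p = 0.0704 in brain (difference 1.56 (95% interval 1.21 to 1.9, adjusted p = 3.44e-05)). Dbp, a clock output factor driven by BMAL1, was at 12.6, 43.4 and 24.5 CPM in the cachectic and 194, 187 and 215 CPM in the normal muscles and at 45.3, 56.1 and 42.02 CPM in the cachectic and 50.5, 50.7 and 47.5 CPM in the normal hypothalami. Its difference was -2.85 (95% interval -3.76 to -1.95, adjusted p = 0.000369). The time of day of collection is not given in the sources used here, and its part was not tested. The plot of list medians sets these groups side by side.

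**Figure D5:**
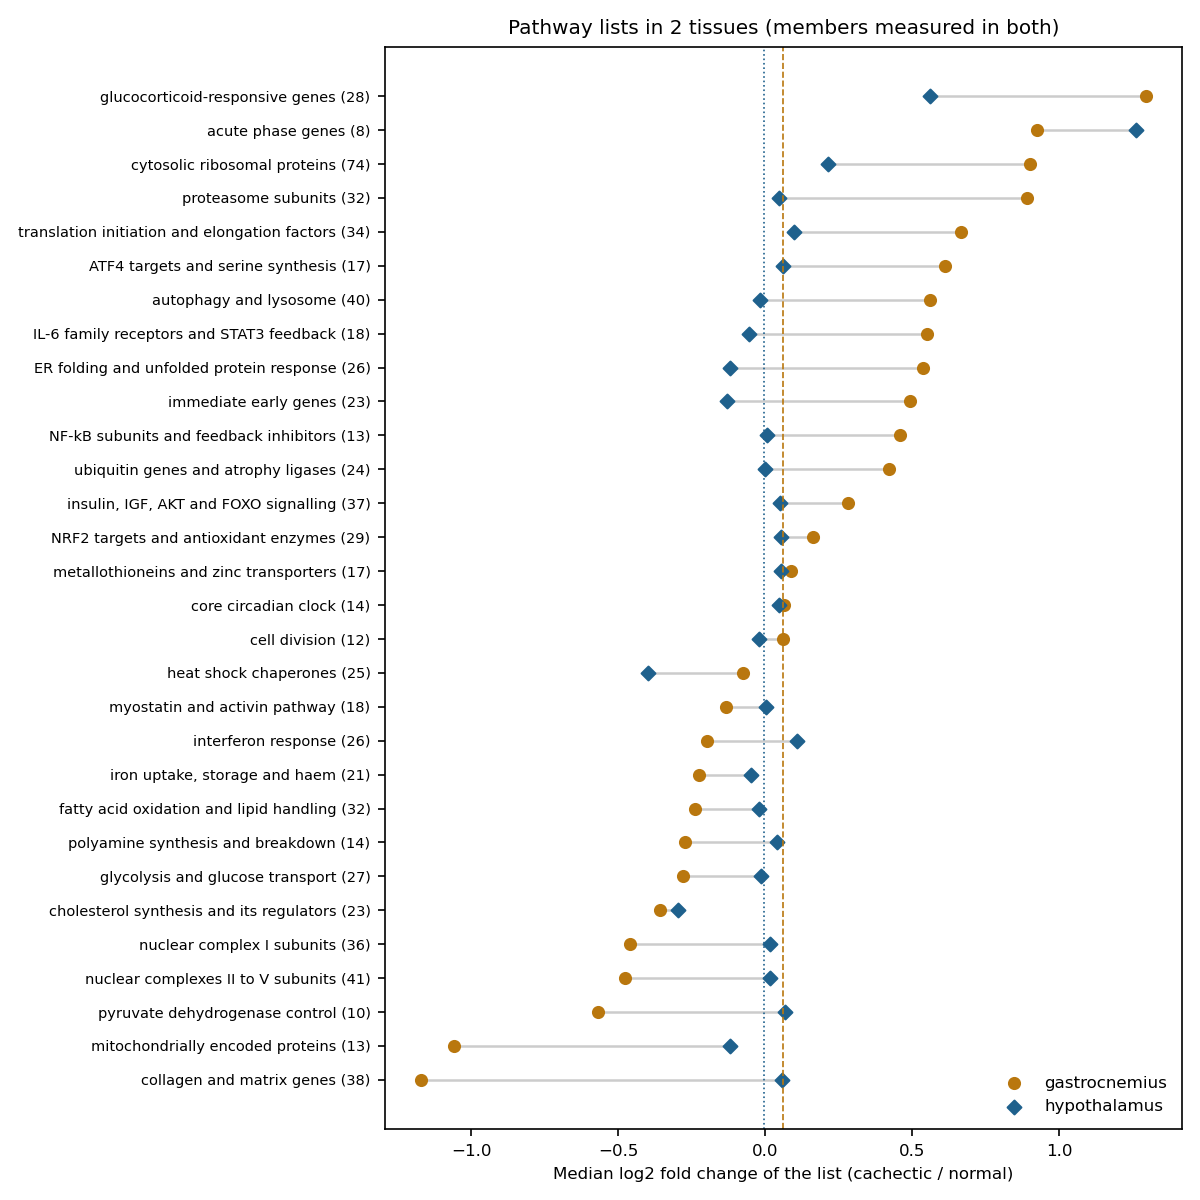
Median log2 change (x axis, cachectic over normal) of the members of each gene list with at least 8 members in both tissues, for gastrocnemius and hypothalamus; the dashed and dotted lines are the medians of all 10132 genes in gastrocnemius (0.059) and hypothalamus (-0.0053). The glucocorticoid-responsive and acute phase lists are high in both tissues, proteasome subunits in gastrocnemius, and collagen and matrix genes are low in gastrocnemius.

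For 113 genes the difference passed with the larger absolute change in hypothalamus, 50 with muscle above brain and 63 below, and 93 of them had passed in hypothalamus. Vessel wall genes were among those that rose there. Fbln5, an elastic fibre protein, was at 22.03, 17.2 and 20.4 CPM in the cachectic and 4.62, 3.88 and 4.796 CPM in the normal hypothalami, a 4.47-fold rise, and at 24.9, 16.9 and 26.4 CPM in the cachectic and 17.02, 16.9 and 17.4 CPM in the normal muscles, where the groups overlapped (difference -1.75 (95% interval -2.22 to -1.28, adjusted p = 0.000126)). Phyhd1, a dioxygenase-like protein, was at 45.6, 29.1 and 39.96 CPM in the cachectic and 10.7, 10.3 and 13.96 CPM in the normal hypothalami and at 22.03, 16.8 and 36.2 CPM in the cachectic and 20.96, 23.4 and 28.7 CPM in the normal muscles (difference -1.67 (95% interval -2.42 to -0.92, adjusted p = 0.00347)). Podxl, a sialomucin of endothelial cells, was at 30.005, 28.6 and 24.6 CPM in the cachectic and 16.9, 14.9 and 17.6 CPM in the normal hypothalami and at 50.1, 40.9 and 46.2 CPM in the cachectic and 49.3, 50.9 and 99.3 CPM in the normal muscles (difference -1.29 (95% interval -1.95 to -0.63, adjusted p = 0.007396)). For Fbln5, Phyhd1 and Podxl leaving out any single library kept the call of the difference.

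For some genes the 2 changes could not be separated, and the intervals show how close they were with TMM scaling. The median difference of all genes was 0.044 with TMM, 0.231 with library totals and 0.418 on log2(TPM + 0.5). The intervals do not include that shift between scalings. Agt, Lpar1 and Alas2 had intervals that stayed within a log2 difference of 0.84 on either side (95% interval -0.45 to 0.56, 95% interval -0.48 to 0.58 and 95% interval -0.38 to 0.84). Tgm2, a transglutaminase that crosslinks proteins, rose by 1.02 ± 0.15 in muscle and 1.24 ± 0.09 in brain, with 95% interval -0.62 to 0.14. Nr1d1, the clock repressor REV-ERB alpha, fell by 0.61 ± 0.17 and 0.44 ± 0.09 with 95% interval -0.62 to 0.25, and both of its calls were lost without several single libraries, such as cachectic muscle 1 (adjusted p = 0.07905) and normal hypothalamus 2 (0.0636). A difference that missed the threshold does not show equal change: for Lcn2, the interval of -4.86 to 1.7 allowed a larger rise in either tissue.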

How the data were processed

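Total RNA of gastrocnemius and hypothalamus was sequenced from directional libraries as 100 bp paired reads, per the labels' protocols. The submitters' processing notes name STAR 2.7.9a, Trim Galore 0.6.6 and RSEM 1.3.3 with GRCm38; the annotation release and strand setting are not given in the sources used here. The authors deposited, per gene and library, expected counts (estimated fragments, not normalised), TPM and FPKM, with transcript and effective lengths, per the file headers. FPKM was not used. Identifiers were matched to GENCODE names, and 52135 of 55416 matched, holding 99.6% of the counts. Promoters came from RefSeq (GRCm38.p6).

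Expected counts were rounded to whole numbers and fitted with edgeR 4.0.16 (R 4.3.3): filterByExpr, TMM factors and the quasi-likelihood test, with Benjamini-Hochberg adjustment over all genes tested and a threshold of 0.05. Each tissue was fitted on its own 6 libraries (14265 and 17961 genes) and the interaction on all 12 (18746 genes). The code was tested on simulated data. CPM values are TMM-normalised over 12 libraries, and SE and 95% intervals follow from the test statistic. Totals of 26015741 to 52535761 leave low-level genes the least precise. DESeq2 1.42.0, limma 3.58.1 on TPM, other filters and scalings, and left-out libraries and mice were the alternatives.

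Titles give the mouse number, so equal numbers in the 2 tissues mark the same animal. Deviations from the group means correlated between the tissues of a mouse with r of -0.151 to 0.259, and mouse as a block is an alternative. Replicate libraries of a group differed beyond sampling noise. Replicates are separate mice.

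The members and gene lists were chosen with earlier results of these data known. Genes were named by a rule: the 10 highest and 10 lowest interaction values among calls; the 10 genes higher and 10 lower in both tissues with the largest smaller change and no overlap; 6 each way of the opposite genes; a fixed list of stress, cytokine and clock genes; and 2 members per list by interaction and 2 by shared change. Predicted models, pseudogenes and receptor segments were not named, and a few genes that the rule or the lists hold are not reported here. Genes that the text gives beside these (Rbm3, Cirbp, Icam1, Vwf, Agt, Prodh, Glul, Alas2, Hba-a1, Tgm2, Scd1, Mbp, Pmp22, Enpp2, Sparc, Itga7, Fbln5, Phyhd1, Podxl, Lifr, Bpgm, Chordc1 and the heat shock genes Hspa1a, Hspa1b, Hsph1, Dnajb1 and Hsp90ab1) were chosen after their values were seen.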

Additional observations from a re-analysis of the deposited data

Results flagged for a closer look

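The log2 change in gastrocnemius minus that in hypothalamus passed the interaction test for 45 of the genes reported here that were chosen by the size of the difference, for opposite change or from the fixed list, and each is given by that difference; genes named from the pathway lists or for a change alike in both are not counted in the 45. Muscle lay above brain for Mt2 (5.84), Mt1 (5.18), Ctxn3 (4.15), Fbxo32 (4.02), Chil1 (3.83), Hoga1 (3.79), Sesn1 (3.49), Rrad (3.35), Serpina3n (3.32) and Csf3r (3.24), the highest values of the rule. It also lay above for the regulators Cebpd (3.04), Ddit4 (2.7), Cdkn1a (2.38), Socs3 (2.23), Fkbp5 (1.75), Foxo1 (1.66), Arntl (1.56) and Stat3 (1.24), and for Ctsl (1.88), Bnip3 (1.49) and Ucp2 (1.32). Among genes that rose in muscle and fell in brain, the differences were 2.16 for Gadd45b, 1.97 for Mvd, 1.82 for Adamtsl4, 1.73 for Dok3, 1.68 for Padi2 and 1.65 for Tjap1.

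Muscle lay below brain for Cyp2f2 (-6.78), Mdga1 (-5.87), Nrep (-5.70), Cbr2 (-5.04), Gdap1 (-4.61), Fmod (-4.48), Ces1d (-4.45), Igfbp5 (-4.39) and Gamt (-4.20), among the lowest values of the rule. The genes that fell in muscle and rose in brain were Mamstr (-3.70), Fn1 (-2.68), Apoc1 (-2.58), Tcim (-2.49) and Tfrc (-2.19). The rest were Dbp (-2.85), Sgk1 (-1.11), Il1r1 (-1.10) and Cebpb (-0.975). With 3 libraries per group, no single library was tested as an extreme value.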

How the results depend on the processing

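Of the values recomputed for named genes, 11125 kept direction and side of the threshold, 735 kept direction but no longer passed, 101 came to pass and 6 reversed. The numbers below are counts of genes, with the value of the text first, and the cause of each shift was not tested. For muscle above brain (2035) and below brain (1549), adjusted p below 0.01 gave 1178 and 857, log2(TPM + 0.5) with limma 3885 and 484, and log2(TPM + 1) 3852 and 473; library totals gave 854 below and mean TPM of at least 5 gave 734 below. For higher (2364) and lower (1703) in gastrocnemius, the 0.01 threshold gave 1306 and 860, log2(TPM + 0.5) 4016 and 590, and log2(TPM + 1) 4000 and 583, while totals gave 974 and TPM of at least 5 gave 830 lower. For higher (449) and lower (548) in hypothalamus, TPM of at least 5 gave 270 and 307, the 0.01 threshold 122 and 140, the 12-library fit 59 and 25, log2(TPM + 0.5) 150 and 180, log2(TPM + 1) 148 and 175, and no count filter 722 higher. For higher (204) and lower (171) in both, totals gave 318 and 89, the 0.01 threshold 49 and 39, the 12-library fit 45 and 15, log2(TPM + 0.5) 96 and 26, log2(TPM + 1) 95 and 25, no count filter 323 higher and TPM of at least 5 gave 87 lower. For the opposite genes (69 with muscle higher and 43 with muscle lower), no count filter gave 108 and 80, the 0.01 threshold 8 and 8, the 12-library fit 3 and 4, log2(TPM + 0.5) 39 and 9, log2(TPM + 1) 38 and 9, a TPM filter before the fit 65 and TPM of at least 5 gave 22 with muscle lower.

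Leaving out single libraries or both libraries of a mouse gave 1350 to 2421 genes above and 976 to 1889 below, 1464 to 2368 higher and 1143 to 1705 lower in gastrocnemius, 166 to 451 higher and 176 to 548 lower in hypothalamus, 69 to 196 higher and 63 to 160 lower in both, and 15 to 74 and 14 to 48 opposite. Where 1 library of a group was left out, the other groups supplied part of the spread. Pearson's r of 0.283 was 0.357 without a count filter, 0.259 at 1 CPM in 3 libraries, 0.327 at TPM of at least 5, 0.345 in the 12-library fit and 0.257 on log2(TPM + 1), with 0.235 to 0.321 over left-out libraries. The reversed values were the differences of Hmgcs1 (0.0143 and 0.0399 on log2(TPM + 0.5) and log2(TPM + 1)), Map3k6 (0.889 and 0.994), Lrg1 (0.264 on log2(TPM + 1)) and Pygb (0.00058 on log2(TPM + 1)). With mouse as a replicate block, 1590 genes lay above and 1271 below; of the differences chosen by the naming rule, 139 kept their call, 6 lost it (Hmgcs1 and Sgk1 among those given above) and 1, Nfkbia, gained it. Genes with few reads in the normal libraries are limited by depth.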

Other observations

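Cachectic hypothalamus 2 was the highest of all 6 hypothalami for Cyp2f2 and for Scgb3a1. Cachectic mouse 1 was highest for the summed neutrophil markers in both of its tissues, at 387 CPM in gastrocnemius and 96.4 CPM in hypothalamus.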
